A study of Mus musculus with 4 samples.

Results

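The 36 genes described here are the laminin and integrin chains of the mouse as they are listed in single-cell count tables of the neonatal oviduct and uterus. They were taken by symbol: Lama, Lamb or Lamc followed by 1 digit, Itga or Itgb followed by digits only, and Itgav, Itgae, Itgal, Itgam, Itgax and Itga2b. Of the 31053 genes in the tables, 11 laminin chains and 25 integrin chains (17 alpha and 8 beta) met the rule, while Itgad, Itgb2l, Itgbl1, Itgb1bp1, Itgb1bp2 and Itgb3bp did not. Cells came from untreated wild-type CD1 mice at postnatal day 3, and each organ gave 2 libraries, so that there were 4 in all. The neonates were pooled, 3 in one pool and 4 in the other, and per the series text both organs came from the same neonates. The organs were dissociated with dispase, collagenase and DNase, and droplet libraries that read the 3′ end of each transcript were prepared. The labels name mesenchymal and epithelial cells, and mesothelium, smooth muscle, pericytes, blood endothelium and myeloid cells were present beside them.

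A laminin is a heterotrimer of 1 alpha, 1 beta and 1 gamma chain that cells secrete into the basement membrane, the thin matrix sheet under epithelia and mesothelia and around muscle cells and vessels. An integrin is a membrane receptor made of 1 alpha and 1 beta chain that couples the matrix, or a ligand on another cell, to the cytoskeleton. Itga3, Itga6 and Itga7 with Itgb1, and Itga6 with Itgb4, bind laminins, the Itga1, Itga2, Itga10 and Itga11 chains pair with Itgb1 to bind collagens, and a further group recognises the RGD sequence of fibronectin, vitronectin or nephronectin. The oviduct and uterus arise from the Müllerian duct, an epithelial tube on a basement membrane inside a mesenchyme that gives rise to stroma and smooth muscle, with a mesothelium on the outside.

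The tables held 7808 and 6773 cell barcodes for the oviduct and 5716 and 6322 for the uterus, with 114419939, 82213345, 61117726 and 70172415 unique molecular identifiers (UMIs, 1 per captured RNA molecule). The libraries shared between 8 and 15 barcodes per pair. After filters, 20375 of 26619 barcodes were kept, and limits on genes detected and on the mitochondrial share took out 11.4% and 13.8% of the barcodes of the oviduct but 29.0% and 28.7% of those of the uterus. Each kept cell was put in a class when its summed marker genes passed a limit, and no laminin or integrin gene was among the markers. The limits were set after marker levels of the cells had been seen. Classes held 11226 mesenchymal, 3365 smooth muscle, 1072 mesothelial, 670 blood endothelial, 490 pericyte, 479 epithelial and 224 myeloid cells. Every marker of a class had UMIs in that class. Between mesenchyme and smooth muscle 1647 cells were left out (515 and 377 of the oviduct, 372 and 383 of the uterus), 911 passed no limit, and 710 cells lay within 5 UMIs per 10000 of the muscle limit. Counts were summed per library and class, and levels are given as UMIs per 1000000 UMIs of that sum (CPM), in the order of replicates 1 and 2. A sum weighs deep cells more than shallow ones, and CPM are compared between classes and organs, not between genes. Free RNA was bounded at 0.676% to 21.7% of a sum. The bound was the 1% quantile of a ratio over 701 to 13450 genes per sum. This ratio set the UMIs of a gene against those expected if the whole sum were free RNA.

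Promoter sequence is shown for 5 of the chains described below: Lama2 and Lamb1, both higher in oviduct stroma, Itga1 and Itga2, neighbouring genes that were both lower there, and Lama5, the chain that set epithelium and mesothelium apart from mesenchyme. None is shown for Lamc1, Lama4 and Itga6. The sequences are from RefSeq on GRCm38.p6, written 5′ to 3′ on the gene's strand. They lie at chr10:27616943-27617192 on the minus strand for Lama2, chr12:31265043-31265233 on the plus strand for Lamb1, chr13:115101965-115102214 on the minus strand for Itga1, chr13:114932101-114932350 on the minus strand for Itga2 and chr2:180225860-180226109 on the minus strand for Lama5. The Lamb1 stretch is 191 bases long and stops 59 bases before the RefSeq start, where the annotation places the first exon, and the Lama2 start of RefSeq lies inside a longer GENCODE gene. Capitals mark the motifs searched on both strands: the GC box GGGCGG (which reads CCGCCC when it lies on the other strand), the AP-1 type motif TGANTCA, the TATA box as TATAAA, and the CArG box.
Lama2: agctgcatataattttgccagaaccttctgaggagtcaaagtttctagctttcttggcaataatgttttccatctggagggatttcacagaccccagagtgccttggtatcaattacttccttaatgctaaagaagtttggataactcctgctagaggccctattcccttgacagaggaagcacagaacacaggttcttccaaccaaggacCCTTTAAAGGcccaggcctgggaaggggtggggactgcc
Lamb1: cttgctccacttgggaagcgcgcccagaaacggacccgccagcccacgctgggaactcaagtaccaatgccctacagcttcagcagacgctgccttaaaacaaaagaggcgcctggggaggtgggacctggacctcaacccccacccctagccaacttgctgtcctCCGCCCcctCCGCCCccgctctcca
Itga1: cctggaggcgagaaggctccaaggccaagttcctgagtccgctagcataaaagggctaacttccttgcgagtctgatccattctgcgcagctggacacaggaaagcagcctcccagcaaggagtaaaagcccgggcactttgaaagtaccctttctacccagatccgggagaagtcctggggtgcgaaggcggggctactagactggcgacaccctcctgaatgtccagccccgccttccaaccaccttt
Itga2: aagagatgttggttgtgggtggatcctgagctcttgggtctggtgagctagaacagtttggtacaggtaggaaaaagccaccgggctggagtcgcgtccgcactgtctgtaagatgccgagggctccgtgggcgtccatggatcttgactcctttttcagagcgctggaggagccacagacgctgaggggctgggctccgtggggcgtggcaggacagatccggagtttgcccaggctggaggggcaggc
Lama5: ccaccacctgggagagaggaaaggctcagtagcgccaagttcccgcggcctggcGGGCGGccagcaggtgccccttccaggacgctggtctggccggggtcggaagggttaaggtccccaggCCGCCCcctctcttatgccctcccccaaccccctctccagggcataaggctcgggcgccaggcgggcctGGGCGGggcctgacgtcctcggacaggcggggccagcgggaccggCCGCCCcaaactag
Lama5 held 4 matches to GGGCGG, Lamb1 2, and Itga1 and Itga2 none. The only capital stretch of Lama2 is a match to the CArG box. Over 27025 mouse promoters, the 250 bases before the start held GGGCGG in 32.9%, TGANTCA in 6.87%, TATAAA in 13% and the CArG box in 1.40%. Among the 23 members with a promoter entry, taking the first entry of each, 8 held GGGCGG, 1 TGANTCA, 0 TATAAA and 1 the CArG box. These matches describe letters and name no bound factor.

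Levels by class differed for most chains. Of the 36 members, 26 reached a mean of 20 CPM in at least 1 class and 10 did not: Itga10, Itga11, Itgae, Itgax, Itgb3, Itgb6, Itgb7, Lama1, Lama3 and Lamc3. The highest class mean was in the epithelium for 5 members, the mesothelium for 6, the mesenchyme for 4, the smooth muscle for 1, the pericytes for 6, the blood endothelium for 6 and the myeloid cells for 8. The heat map of members by class and library shows these blocks.

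**Figure D1:**
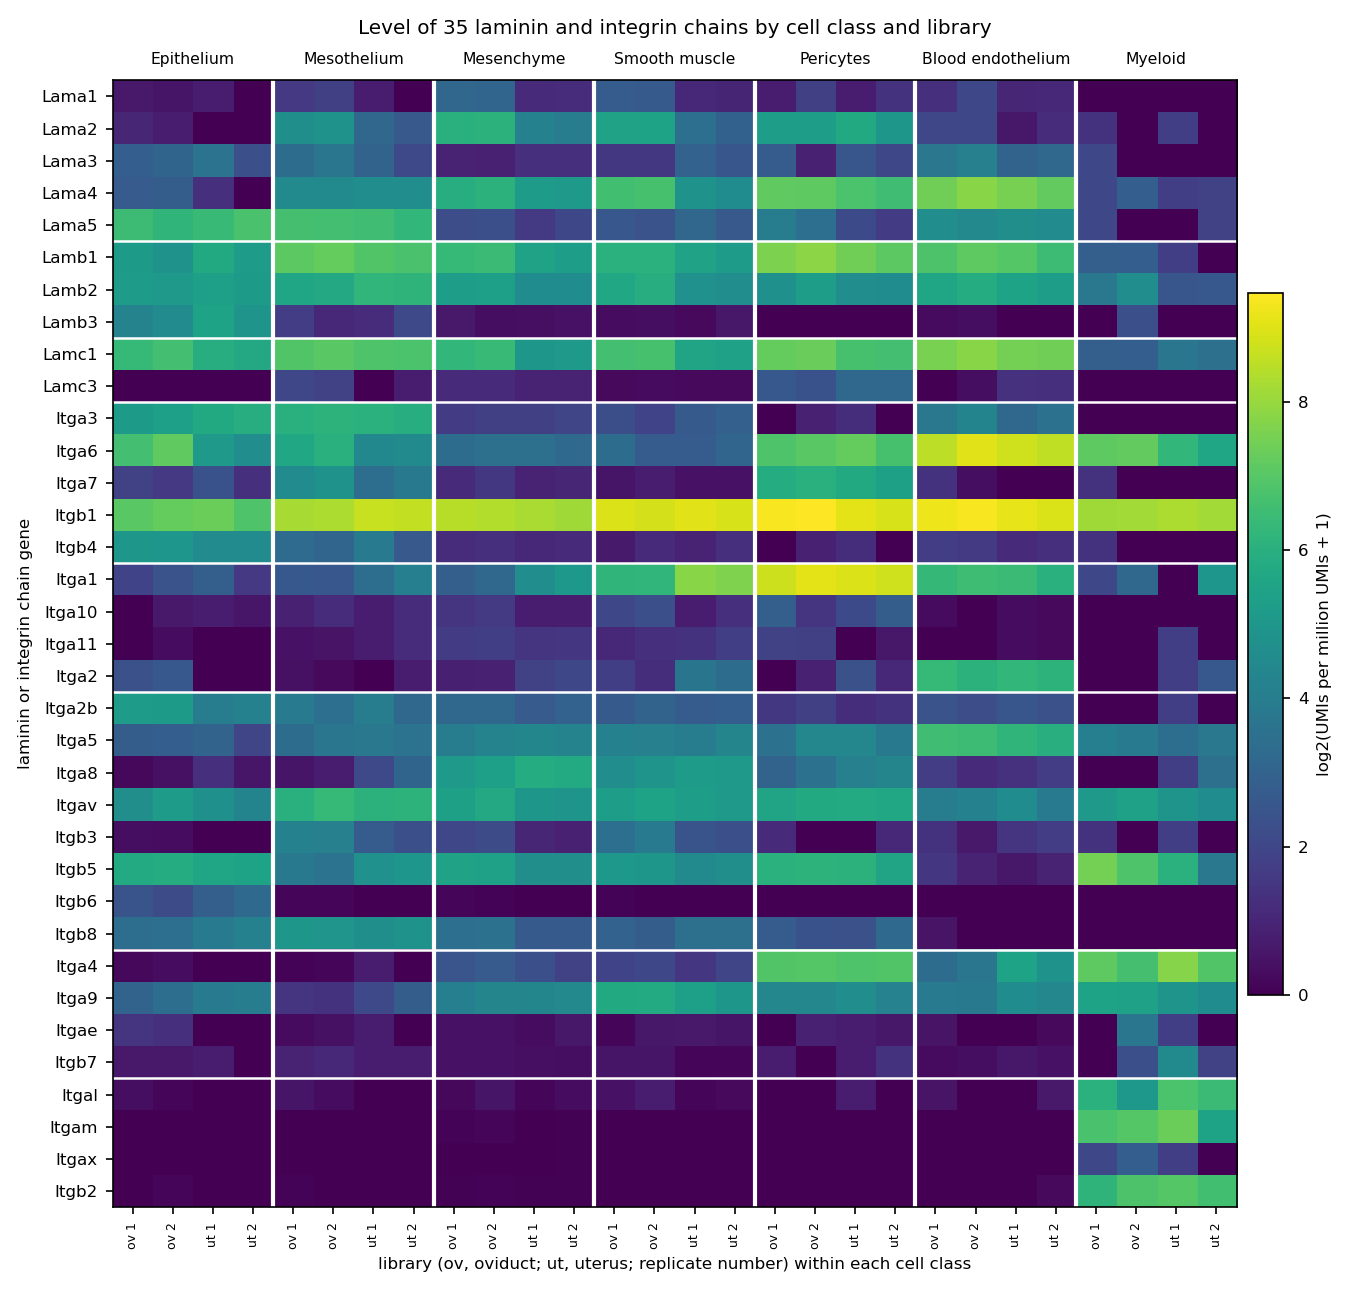
Level of 35 laminin and integrin chains (vertical axis) in 7 cell classes, with the 2 oviduct and 2 uterus libraries of a class side by side (horizontal axis), as log2(CPM + 1). Itgb1 is high in every class, the leukocyte chains Itgal, Itgam and Itgb2 are bright only among myeloid cells, and Itga1 is brightest in pericytes, at a mean of 481.7 CPM.

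Against mesenchyme, the largest and most mixed class, each other class was tested with edgeR's quasi-likelihood test in 1 model of all sums with a term for library, and 33 members passed its filter on low counts (all but Itgae, Itgax and Itgb7). Adjusted p-values are Benjamini-Hochberg values over the 13984 genes tested. In epithelium 9 members were higher and 15 lower, where 59.5% of all genes were called, 26.6% higher and 32.9% lower. In blood endothelium 12 were higher and 10 lower (59.5% of all genes called, 26.1% higher and 33.5% lower). In mesothelium 14 were higher and 11 lower (46.1% of all genes, 21.3% and 24.8%), and in myeloid cells 7 and 10 (54.7%, 22.4% and 32.3%). In pericytes 11 were higher and 4 lower (28.1% of all genes, 10.9% and 17.1%), and in smooth muscle 7 and 2 (6.68%, 3.46% and 3.22%). The called share of the members was thus 72.7% in epithelium, 66.7% in blood endothelium, 75.8% in mesothelium, 51.5% in myeloid cells, 45.5% in pericytes and 27.3% in smooth muscle. The smooth muscle count fell to 3 when classes came from clusters (7.42% of all genes called) and rose to 17 when the class effect was fitted per organ (24.7%). It was 4 without oviduct replicate 1 (3.55% of all genes called), and 5 without uterus replicate 1 (5.15%) or without uterus replicate 2 (5.18%). Median log2 differences of the members ran from -1.31 in myeloid cells to 0.45 in mesothelium, beside -0.31 to -0.03 over all genes.

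Among the laminin alpha chains, which carry the integrin-binding end of the trimer, Lama5 set epithelium and mesothelium apart from mesenchyme. Lama5 measured 88.5 and 72.0 CPM in the oviduct and 85.3 and 106 CPM in the uterus in the epithelium, and 101 and 97.9 CPM in the oviduct and 93.5 and 75.9 CPM in the uterus in the mesothelium. Mesenchymal sums held 3.76, 3.95, 2.03 and 3.12 CPM in the same order of libraries. No epithelial or mesothelial library came near a mesenchymal one. The log2 differences from mesenchyme were 4.62 ± 0.25 (SE, adjusted p = 2.78e-13) in epithelium and 4.64 ± 0.25 (adjusted p = 1.54e-12) in mesothelium by edgeR. Blood endothelium was intermediate at 23.9, 21.2, 24.9 and 22.9 CPM (log2 difference 2.71 ± 0.25, adjusted p = 1.61e-09). Lama5 thus ordered as mesothelium and epithelium, whose libraries overlapped, then blood endothelium, then pericytes, smooth muscle, mesenchyme and myeloid cells, all of which had means under 8 CPM. Among these last 4, pericyte libraries, at 14.6, 10.0, 3.39 and 2.13 CPM, overlapped those of smooth muscle, mesenchyme and myeloid cells, and mesenchymal ones overlapped those of myeloid cells.

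Lama4, an alpha chain of vessel and muscle basement membranes, was highest in vessels and low in epithelium. Its class means over the 4 libraries of both organs were 180.2 ± 30.5 CPM (SD, n = 4) in blood endothelium and 121 ± 23.6 CPM in pericytes. Smooth muscle held 62.9 ± 43.5 CPM, mesenchyme 48.7 ± 16.8 CPM and mesothelium 22.9 ± 1.1 CPM, while epithelium held 3.25 ± 3.00 CPM, a level at which free RNA could make up to 61.5% of the UMIs of a library. Endothelial and pericyte sums exceeded those of mesenchyme by 1.81 ± 0.27 (adjusted p = 2.75e-06) and 1.24 ± 0.27 (adjusted p = 0.00125) on the log2 scale. Epithelium was lower than mesenchyme by edgeR (log2 difference -3.72 ± 0.36, adjusted p = 5.76e-09). Lama2, the alpha chain of the muscle fibre sheath, was lower than in mesenchyme in epithelium (log2 difference -6.25 ± 0.53), blood endothelium (-4.33 ± 0.42) and mesothelium (-1.38 ± 0.32), and its differences of 0.27 ± 0.32 in pericytes and -0.67 ± 0.28 in smooth muscle missed the threshold. Myeloid libraries held 1 Lama2 UMI or none. Lama1, the alpha chain of early embryonic basement membranes, reached at most 7.82 CPM in a library, and Lama3 at most 16.5 CPM.

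Among the beta chains, Lamb3, known from the laminin of anchored epithelia such as skin, marked the epithelium. It measured 17.9, 22.7, 44.4 and 28.7 CPM in the epithelium, and all libraries of the other classes held between 0 and 4.02 CPM. Its log2 difference from mesenchyme was 5.95 ± 0.38 (adjusted p = 3.23e-11, edgeR). Mesothelium, at 2.31, 1.11, 1.29 and 3.3 CPM, also exceeded mesenchyme (log2 difference 2.08 ± 0.42, adjusted p = 4.33e-04).

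Lamc1, the gamma chain of most laminins, had class means from 8.67 ± 2.94 CPM in myeloid cells to 188 ± 20.4 CPM in blood endothelium (SD, n = 4). Lamb1, the beta chain that usually accompanies it, ran from 3.7 ± 3.05 CPM in myeloid cells to 181 ± 38.7 CPM in pericytes. Both were higher in blood endothelium, pericytes and mesothelium than in mesenchyme, with log2 differences between 0.81 ± 0.17 and 1.73 ± 0.18. In myeloid cells, 6 of the 11 laminin chains were lower than in mesenchyme by edgeR (Lama1, Lama2, Lama4, Lamb1, Lamb2 and Lamc1), where 32.3% of all genes were lower. Lamb2, a beta chain of vessel, muscle and nerve contacts, had a class mean between 11.7 ± 9.05 CPM in myeloid cells and 60.4 ± 14.0 CPM in mesothelium. Lamc3 had its highest mean, 6.34 ± 2.02 CPM, in pericytes.

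Itgb1, the beta chain shared by most integrins, was detected at over 100 CPM in every class and library, from 132, 151, 162 and 117 CPM in the epithelium to 663, 708, 546 and 476 CPM in pericytes. Epithelium was the class with the lowest mean, -1.31 ± 0.11 on the log2 scale from mesenchyme (adjusted p = 5.64e-10). Pericytes, blood endothelium and smooth muscle were above mesenchyme by 0.79 ± 0.11, 0.72 ± 0.11 and 0.67 ± 0.11. In smooth muscle Itgb1 held 495 and 464 CPM in the oviduct and 524 and 478 CPM in the uterus, and with classes taken from clusters its difference of 0.38 had an adjusted p of 0.0639.

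The alpha partners of Itgb1 for laminin were spread over different classes. Itga6 was highest in blood endothelium, with 368 and 528 CPM in the oviduct and 439 and 373 CPM in the uterus, and the libraries of both organs overlapped (log2 difference from mesenchyme 5.32 ± 0.37, adjusted p = 1.33e-11). In mesothelium Itga6 measured 50.3, 63.9, 20.6 and 21.8 CPM (log2 difference 1.81 ± 0.34). Itga3, a receptor chain of epithelial basement membranes, measured 63.1, 68.5, 64.5 and 58.0 CPM in the mesothelium and 34.7, 39.1, 52.9 and 58.8 CPM in the epithelium, beside 2.14, 2.43, 2.45 and 2.95 CPM in the mesenchyme. Its differences from mesenchyme were 4.5 ± 0.25 and 4.04 ± 0.25 (adjusted p = 1.59e-11 and 2.16e-11). Itga7, known from skeletal and smooth muscle, was highest in pericytes, at 57.1, 64.3, 52.2 and 40.4 CPM (log2 difference 5.29 ± 0.31, adjusted p = 5.40e-12). In the smooth muscle class Itga7 did not exceed 0.654 CPM in any library and was lower than in mesenchyme (log2 difference -1.43 ± 0.40, adjusted p = 0.0273), a call that was lost without oviduct replicate 1 (adjusted p = 0.0682) and without oviduct replicate 2 (adjusted p = 0.195) and without uterus replicate 2 (adjusted p = 0.0976). Itgb4, the beta partner of Itga6 in hemidesmosomes, measured 31.1, 30.7, 22.6 and 22.7 CPM in the epithelium and exceeded mesenchyme by 4.29 ± 0.28 (adjusted p = 6.10e-12).

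The collagen-binding chains Itga1 and Itga2 lie side by side on chromosome 13, both on the minus strand, Itga1 at chr13:114953096-115101964 and Itga2 at chr13:114833081-114932100 (mm10, GENCODE M21), and their class patterns differed. Itga1 measured 432 and 547 CPM in the oviduct and 503 and 445 CPM in the uterus in pericytes, and these libraries overlapped. From mesenchyme the pericyte difference was 4.90 ± 0.40 (adjusted p = 1.81e-09) and that of smooth muscle 3.09 ± 0.36 (adjusted p = 2.71e-06). Blood endothelium held 78.3, 90.5, 87.0 and 63.3 CPM. Itga2 was nearly restricted to blood endothelium, where it measured 80.1 and 67.6 CPM in the oviduct and 76.3 and 67.8 CPM in the uterus (log2 difference 5.36 ± 0.50, adjusted p = 2.49e-09), and no library of another class passed 11.7 CPM. Pelo, a ribosome rescue gene, and Gm49395 overlap Itga1 on its strand, so that some UMIs counted for either could belong to the other. Itga10 and Itga11 stayed under 7 CPM in every library.

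**Figure D2:**
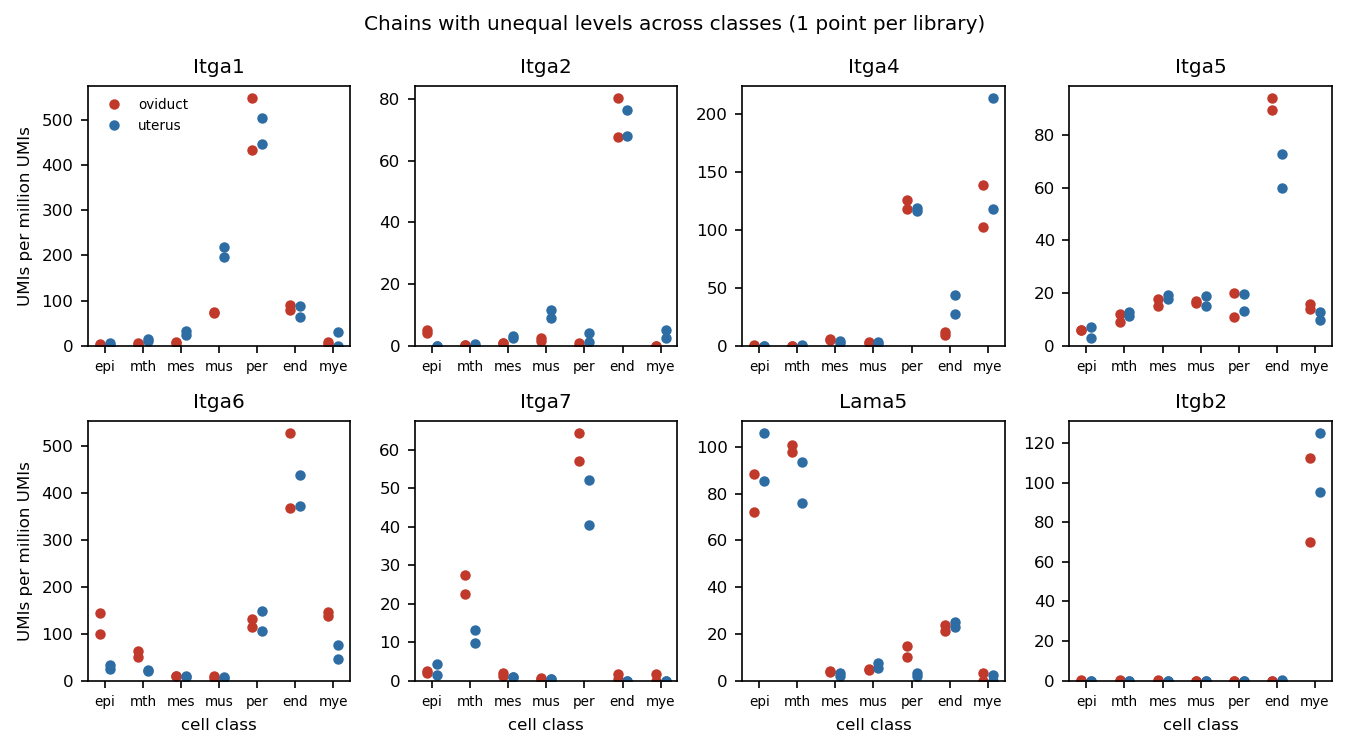
Level in CPM (vertical axis, linear, from 0) of 8 chains in 7 classes (horizontal axis: epi, epithelium; mth, mesothelium; mes, mesenchyme; mus, smooth muscle; per, pericytes; end, blood endothelium; mye, myeloid), with 1 point per library. Itga1 and Itga7 are highest in pericytes, Itga2, Itga5 and Itga6 in blood endothelium, and Itgb2 has counts above 1 CPM in myeloid cells alone.

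Of the RGD-binding chains, Itga5, the alpha chain of the main fibronectin receptor, was highest in blood endothelium at 94.1, 89.7, 72.8 and 59.9 CPM (log2 difference from mesenchyme 2.03 ± 0.16, adjusted p = 8.57e-11) and lowest in the epithelium at 5.9, 6.1, 7.05 and 2.96 CPM. Itga8, a nephronectin receptor chain of mesenchyme and muscle, had its highest mean in mesenchyme, 46.1 ± 11.9 CPM (SD, n = 4), with log2 differences of -6.77 ± 0.45 in epithelium and -4.78 ± 0.34 in blood endothelium. Itgav, which pairs with several beta chains, ran from 17.2 ± 4.34 CPM in blood endothelium to 69.7 ± 6.98 CPM in mesothelium. Its partner Itgb8, an activator of latent TGF-beta, was also highest in mesothelium (28.3 ± 2.76 CPM), and in blood endothelium it stayed under 0.5 CPM. Itgb5, another partner of Itgav, spread widely in myeloid cells, at 178, 114, 64.8 and 12.8 CPM, and blood endothelium was lower than mesenchyme (log2 difference -5.05 ± 0.49). Itgb6, the epithelial partner, was listed at 3.52 to 8.40 CPM in epithelial libraries and at 0.110 CPM or less in all others. Itga2b, best known from platelets, measured 25.6 ± 11.4 CPM in the epithelium (log2 difference 1.75 ± 0.22, adjusted p = 3.61e-07), while its platelet partner Itgb3 was under 1 CPM there and had its highest mean, 10.8 ± 6.84 CPM, in mesothelium.

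Itga4, a receptor chain for VCAM-1 and fibronectin, reached similar levels in myeloid cells (138, 102, 214 and 118 CPM) and pericytes (118, 126, 117 and 119 CPM), whose libraries overlapped. The pericyte difference from mesenchyme was 4.70 ± 0.31 (adjusted p = 5.46e-11). Its relative Itga9 was highest in smooth muscle at 52.9, 54.5, 39.5 and 31.3 CPM (log2 difference 1.29 ± 0.20, adjusted p = 1.29e-04). The leukocyte chains set myeloid cells apart. Itgb2, their shared beta chain, measured 70.0, 112, 125 and 95 CPM, Itgam 107, 124, 161 and 43.6 CPM and Itgal 65.3, 32.1, 110.5 and 87.3 CPM. In every other class each of these 3 stayed under 1 CPM in every library. The log2 differences from mesenchyme were 10.75 ± 0.40, 10.71 ± 0.53 and 8.21 ± 0.54 (adjusted p = 1.38e-13, 2.78e-07 and 6.15e-12), and DESeq2 gave an adjusted p of 0.0576 for Itgam. Itgax, Itgae and Itgb7 had highest class means of 2.9 ± 2.48, 3.61 ± 5.74 and 7.05 ± 9.85 CPM, all in myeloid cells. The myeloid sums were the shallowest, from 35 to 74 cells per library with median depths of 2489 to 4248 UMIs per cell.

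The oviduct and the uterus were compared within each class by edgeR on the 2 sums of each organ, adjusted over all genes tested in the class, with positive log2 fold changes for higher levels in the oviduct. Of the 36 members, 35 passed the filter in at least 1 class (not Itgax) and 25 were called in at least 1. The labels do not say which libraries share a pool of neonates, and the p-values measure the spread between these 4 libraries, which may be technical.

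In mesenchyme the oviduct held more RNA for most laminin chains than the uterus did. Of 31 members tested, 13 were higher and 5 lower in the oviduct, 58.1%, where 43.9% of all 15365 genes were called, 23.4% higher and 20.5% lower. Among laminins, 7 were higher and 1 lower of 11 tested, and the median log2 fold change of these 11 was 0.80 beside -0.00 over all genes. The laminin-binding chains Itga3, Itga6, Itga7, Itgb1 and Itgb4 did not pass, with log2 fold changes between -0.32 and 0.56. The classes of both organs were drawn from different clusters: 50.6% and 37.6% of the uterine cells lay in cluster 17, while clusters 0, 6 and 8 held 14.0% to 19.0% of the oviduct cells each. Summed mesenchyme markers were also between 9131 and 9447 CPM in the oviduct and between 3771 and 3844 CPM in the uterus, and red cell markers between 142 and 197 CPM against 305 and 646 CPM. Clusters 10 and 27, the 2 clusters of mixed markers, had haemoglobin genes among their top genes, and cluster 27 held 70 and 470 uterine mesenchymal cells. Without these 2 clusters, 49 of 50 named values over all classes kept direction and call, and 1 was no longer called. The part of the other clusters and of the mesenchyme markers in the chain differences was not tested.

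Lama2 measured 62.8 and 67.0 CPM in the oviduct and 16.7 and 15.1 CPM in the uterus. The oviduct libraries were far above the uterine ones, and within an organ they lay close together (log2 fold change 1.96 ± 0.09 (SE), adjusted p = 3.59e-09). Lamc1 followed with 76.8 and 83.1 CPM in the oviduct and 31.4 and 33.3 CPM in the uterus (log2 fold change 1.23 ± 0.09 (SE), adjusted p = 2.73e-07). Lamb1 held 80.1 and 87.1 CPM in the oviduct and 43.1 and 38.0 CPM in the uterus (log2 fold change 0.98 ± 0.09 (SE), adjusted p = 2.03e-06). These are an alpha, a gamma and a beta chain that can form 1 laminin together, and their oviduct and uterus libraries did not overlap. Lama4 measured 59.3 and 66.6 CPM in the oviduct and 35.4 and 33.4 CPM in the uterus (log2 fold change 0.80 ± 0.09 (SE), adjusted p = 1.28e-05), and Lamb2 differed in the same direction (0.66 ± 0.09). Among the integrins, Itgb5 measured 42.5 and 42.1 CPM in the oviduct and 24.9 and 24.5 CPM in the uterus (log2 fold change 0.71 ± 0.08 (SE), adjusted p = 2.30e-05), and Itgav differed by 0.56 ± 0.10.

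Lower in the oviduct mesenchyme was Itga8, at 32.7 and 39.5 CPM in the oviduct and 57.5 and 54.6 CPM in the uterus (log2 fold change -0.71 ± 0.10 (SE), adjusted p = 8.26e-05). Itga1, with 6.24 and 7.93 CPM in the oviduct and 24.1 and 31.8 CPM in the uterus, had the lowest log2 fold change of the tested chains in this class (-2.07 ± 0.15, adjusted p = 2.01e-07). Its neighbour Itga2 differed in the same direction at a level under 4 CPM (log2 fold change -1.89 ± 0.24). Both organs' libraries were separate for all 3. Further chains with means under 20 CPM were called. Lama1 (2.54 ± 0.17), Itgb3 (1.76 ± 0.23), Itga10 (1.41 ± 0.27), Itgb8 (0.90 ± 0.12) and Itga4 (0.57 ± 0.19) were higher, and Lama3 (-0.79 ± 0.27) and Itga9 (-0.28 ± 0.10) lower. The last 3 named lost their call without single libraries: Itga4 without oviduct replicate 2 (adjusted p = 0.104) or uterus replicate 2 (0.202), Itga9 without oviduct replicate 1 (0.311) or uterus replicate 2 (0.197), and Lama3 without any 1 of the 4 (adjusted p between 0.0809 and 0.134). Itgb1 (0.16 ± 0.08, adjusted p = 0.143), Itga5 (-0.23 ± 0.10) and Itga6 (0.00 ± 0.12) did not pass.

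Limited to mesenchymal cells in clusters with at least 10 cells in every library, 15 of these 18 calls were kept, the exceptions being Itga10, Itga4 and Lama3, and 39.3% of all genes were called. The organs still lay mostly in different ones of these clusters: cluster 4 held 409 and 269 oviduct cells but 40 and 25 uterine ones, and cluster 17 held 21 and 23 against 1059 and 937. In these clusters Lama2 measured 61.5 and 62.8 CPM in the oviduct and 17.3 and 15.2 CPM in the uterus, close to its values over all mesenchymal cells (log2 fold change 1.82, adjusted p = 1.88e-07). Lamb1 differed by 1.23 and Lamc1 by 1.30, while Lama4 differed by 0.47 and Itga8 by -0.30 on the log2 scale.

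**Figure D3:**
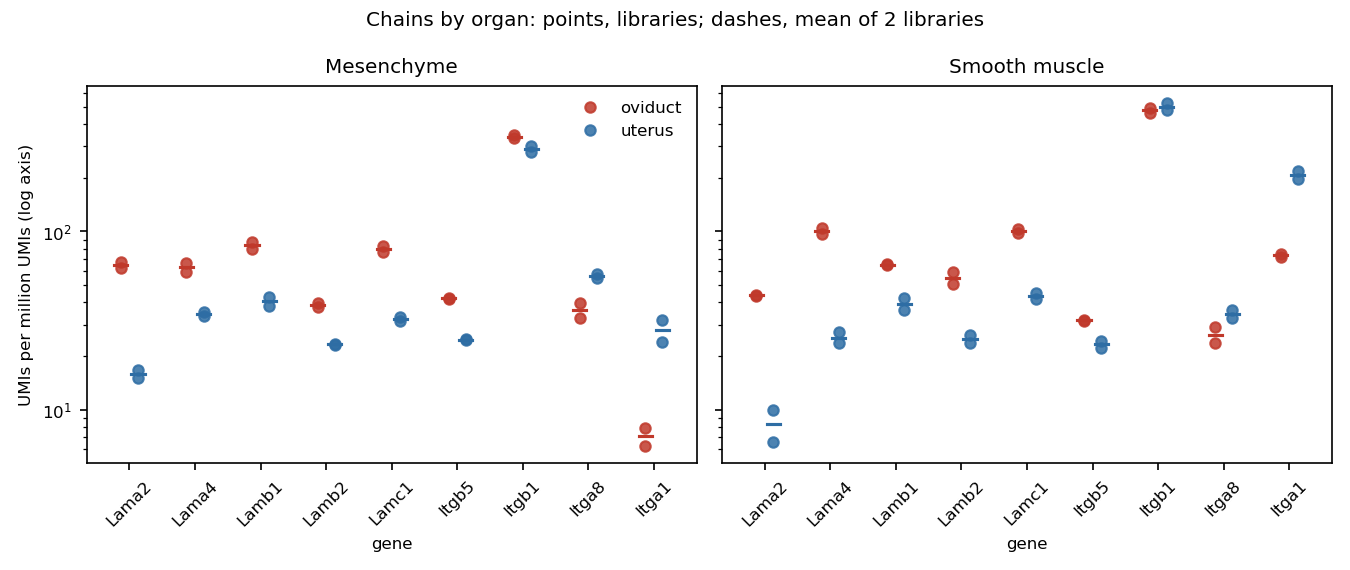
Level in CPM (vertical axis, logarithmic) of 9 laminin and integrin chains (horizontal axis) in mesenchyme and smooth muscle of the oviduct (red) and uterus (blue), with points for libraries and dashes for the mean of 2. In both classes the red points of Lama2, Lama4 and Lamc1 lie above the blue ones, those of Itga1 and Itga8 below, and those of Itgb1 near each other.

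In smooth muscle, too, most laminin chains were higher in the oviduct, and the collagen receptor chain Itga1 was lower. Of 26 members tested, 11 were higher and 6 lower in the oviduct (65.4%, where 31.4% of all genes were called, 16.8% higher and 14.7% lower), and 7 laminins were higher and 1 lower of 9 tested. Lama2 measured 43.4 and 44.1 CPM in the oviduct and 10.0 and 6.61 CPM in the uterus (log2 fold change 2.38 ± 0.14 (SE), adjusted p = 1.15e-09). Lama4 held 96.3 and 104 CPM in the oviduct and 27.2 and 23.5 CPM in the uterus (log2 fold change 1.96 ± 0.11 (SE), adjusted p = 4.25e-10). In both cases every oviduct library was above 40 CPM and every uterine one under 30 CPM. Lamc1 had 97.8 and 103 CPM in the oviduct and 45.3 and 41.6 CPM in the uterus (log2 fold change 1.18 ± 0.10 (SE), adjusted p = 6.61e-08). Lamb2 (1.10 ± 0.11) and Lamb1 (0.71 ± 0.10) were also higher. Itga1 ran the other way with 72.3 and 75.1 CPM in the oviduct and 219 and 196 CPM in the uterus (log2 fold change -1.52 ± 0.09 (SE), adjusted p = 1.16e-09), so that the uterine libraries held the higher levels without overlap. Itga9 (0.58 ± 0.11) and Itgb5 (0.42 ± 0.11) were higher in the oviduct among the integrins above 20 CPM, the latter with an adjusted p of 0.0853 without uterus replicate 1. Itga9 lost its call with classes from clusters (0.21, adjusted p = 0.133) and in the clusters found in every library (0.21, adjusted p = 0.635). Itgb1 did not pass (-0.09 ± 0.09, adjusted p = 0.502). Chains under 20 CPM that were called included Lama1, Itga10 and Itgb3, higher by 1.47 to 2.34, and Itga2, Lama3, Itga3 and Itgb8, lower by log2 fold changes of -2.45 to -0.69. Of these, Itga3 lost its call without oviduct replicate 2 (adjusted p = 0.0726) or uterus replicate 2 (0.127). Itgb8 missed the threshold with DESeq2 (adjusted p = 0.0646), and in the clusters found in every library its log2 fold change turned to 0.30 (edgeR, adjusted p = 0.638). In those clusters Itgb3 (0.42, adjusted p = 0.7), Lama3 (-1.14, 0.355) and Itga3 (-0.63, 0.535) were not called either, and neither was Itgb3 with classes from clusters (0.44, adjusted p = 0.165).

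Itga8 in smooth muscle measured 23.7 and 29.1 CPM in the oviduct and 36.1 and 32.6 CPM in the uterus and was lower in the oviduct (log2 fold change -0.41 ± 0.11 (SE), adjusted p = 0.0104), but this call was lost without oviduct replicate 1 (adjusted p = 0.16) or uterus replicate 1 (0.103), and the direction turned to 0.85 with classes from clusters. Muscle cells, too, came from different clusters: 46.1% and 46.6% of the oviduct cells lay in cluster 2 and 53.3% and 49.5% of the uterine cells in cluster 19. In the clusters found in every library, 81 and 89 oviduct muscle cells remained, and 6 members were called, among them Lama2, Lamc1, Itga1 and Itga2, while the share of all genes called fell from 31.4% to 8.19%. Lama4 held 35.9 and 32.7 CPM in these oviduct cells and 27.3 and 22.6 CPM in the uterine ones, against 101 and 110.2 CPM in the other oviduct muscle cells (log2 fold change in the shared clusters 0.38, adjusted p = 0.307). Lamb2 likewise held 52.7 and 61.2 CPM in the other oviduct clusters and 22.8 and 33.7 CPM in the shared ones, beside 25.6 and 23.2 CPM in uterine cells of the latter (0.12, adjusted p = 0.835). Lamb1 also lost its call there (0.55, adjusted p = 0.0688). The organs still lay mostly in different ones of these shared clusters. Cluster 4 held 44 and 32 oviduct muscle cells against 8 and 18 uterine ones, and cluster 19 held 12 and 27 against 366 and 322. Summed smooth muscle markers were between 10946 and 11375 CPM in the oviduct and between 8683 and 8944 CPM in the uterus, and their part in these differences was not tested.

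**Figure D4:**
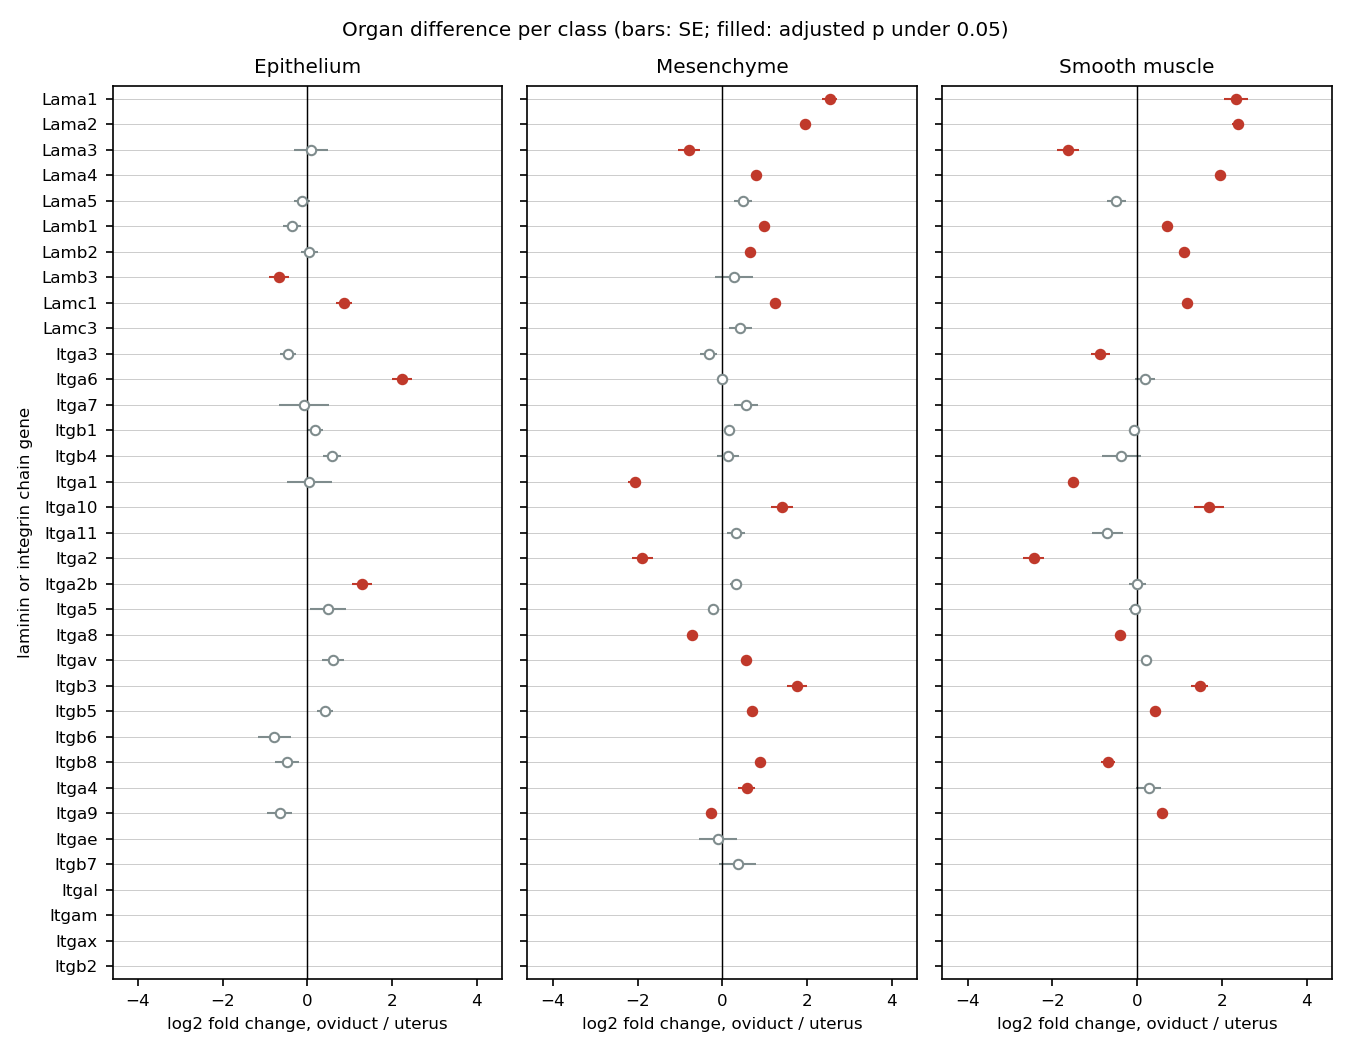
Log2 fold change between oviduct and uterus (horizontal axis, positive for higher in the oviduct, bars for the standard error) of 35 chains (vertical axis) in epithelium, mesenchyme and smooth muscle. Filled points have an adjusted p under 0.05, 17 of those drawn in mesenchyme and 16 in smooth muscle, and chains with 3 or fewer UMIs in 1 organ or under the count filter have no point.

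In the epithelium, the oviduct held more Itga6 and Lamc1 RNA than the uterus, a laminin receptor chain and a laminin gamma chain. Of 22 members tested, 6 were higher and 1 lower in the oviduct (31.8%, where 23.3% of all genes were called, 14.3% higher and 8.97% lower), with a median log2 fold change of 0.13 beside 0.01 over all genes. Itga6 measured 98.4 and 143 CPM in the oviduct and 33.1 and 24.2 CPM in the uterus (log2 fold change 2.24 ± 0.23 (SE), adjusted p = 1.01e-06). Both oviduct libraries lay far above the uterine ones. Lamc1 at 79.9 and 99.6 CPM in the oviduct and 58.5 and 51.4 CPM in the uterus (log2 fold change 0.86 ± 0.19 (SE), adjusted p = 0.00286) and Itga2b at 36.1 and 34.8 CPM in the oviduct and 14.8 and 16.8 CPM in the uterus (log2 fold change 1.29 ± 0.23 (SE), adjusted p = 3.84e-04) were higher as well. Lamb3 was the 1 chain called lower, at 17.9 and 22.7 CPM in the oviduct and 44.4 and 28.7 CPM in the uterus (log2 fold change -0.67 ± 0.23 (SE), adjusted p = 0.045), and its adjusted p was 0.257 without oviduct replicate 1 and 0.329 without uterus replicate 1. The gene 4930570N18Rik overlaps Lamb3 on its strand.

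A pair of low chains had almost no uterine UMIs. Itga2 had 72 UMIs in the oviduct epithelium and 0 in the uterine epithelium, at least 5.34-fold higher in CPM against a floor of 3 counts over both uterine sums. Lama4 had 90 against 2 UMIs, a ratio of CPM of 10.0 with a 95% counting interval of 2.69 to 83.9. Both uterine UMIs of Lama4 lay in replicate 1 and 0 in replicate 2, a spread between libraries that this interval does not cover. Several chains of the epithelial basement membrane did not pass: Lama5 (-0.12 ± 0.19, adjusted p = 0.705), Itgb4 (0.59 ± 0.22, 0.0566), Itga3 (-0.46 ± 0.19, 0.0871), Lamb1 (-0.37 ± 0.21, 0.239) and Itgb1 (0.18 ± 0.19, 0.553).

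Epithelial cells of the oviduct fell partly into clusters that held none of the uterus. Cluster 23 held 46.0% and 44.1% of them and cluster 28 11.5% and 15.5%, with 0 uterine cells in either, while clusters 21 and 22 held all uterine epithelial cells. In the clusters of oviduct cells alone Itga6 measured 109.8 and 148 CPM, against 36.9 and 29.9 CPM in oviduct cells of the shared clusters, a level that overlapped the uterine one. Lamc1 measured 86.3 and 102 CPM in the former and 45.1 and 43.4 CPM in the latter, under both uterine values. Within the shared clusters, where only 0.655% of all genes were called, 0 of the 15 members that passed the filter were called by edgeR, so that this count says nothing particular about the members, and 3 had an unadjusted p under 0.05, Itga9 and Lamb3 among them. There Itga6 differed by 0.44 (adjusted p = 0.927) and Lamc1 by -0.12 (0.987). Depth moved with these clusters: cells of the clusters without uterine cells had median depths of 32813 and 29034.5 UMIs, oviduct cells of the shared clusters 3589 and 3225, and uterine epithelial cells 7453 and 3043. Among cells of at least 5000 UMIs in all clusters, Itga6 differed by 2.28 and Lamc1 by 0.89 and both were called. These cells include those of the clusters without uterine cells, so that the 2 values cannot separate depth from cluster.

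**Figure D5:**
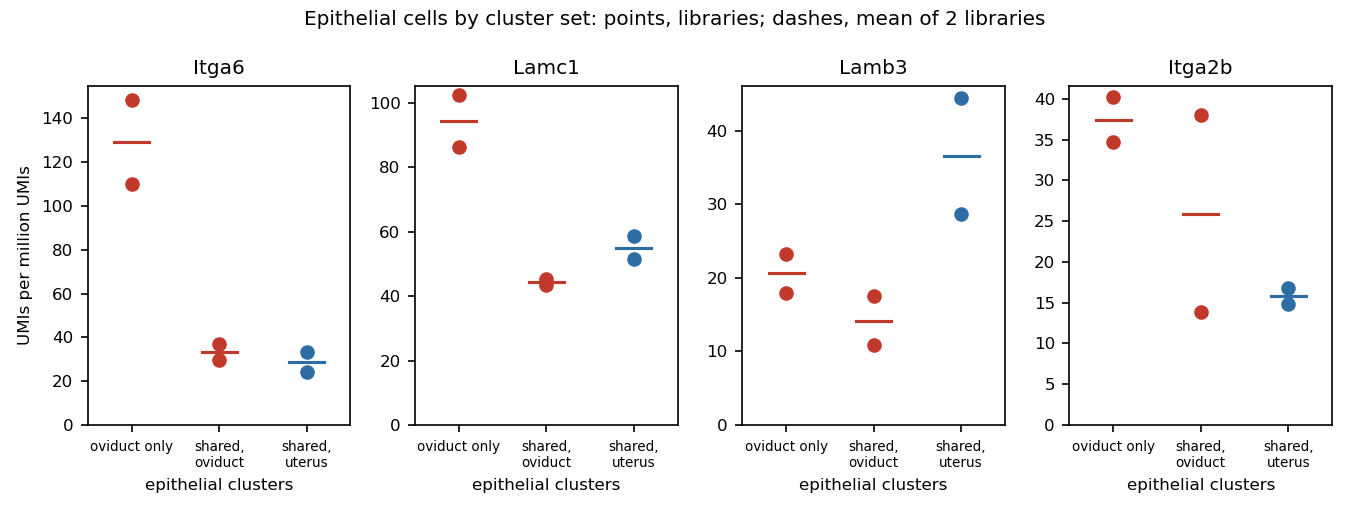
Level in CPM (vertical axis, from 0) of Itga6, Lamc1, Lamb3 and Itga2b in epithelial cells of clusters with oviduct cells only, and in oviduct and uterine cells of the clusters found in every library (horizontal axis), with 1 point per library and a dash for the mean of 2. Itga6 is above 100 CPM only in the left group.

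Foxj1, the master regulator of motile cilia, had UMIs in 50 and 81 oviduct epithelial cells and in 8 and 5 uterine ones. Summed epithelial markers were between 2539 and 2830 CPM in oviduct and between 2773 and 2854 CPM in uterine epithelium, and mesenchyme markers were at 119 CPM in both oviduct libraries and between 127 and 252 CPM in the uterine ones. Oviduct cells with a Foxj1 UMI held 109.5 and 153 CPM of Itga6, and those without held 72.2 and 118 CPM. The difference was in the same direction in both libraries, and cells with a Foxj1 UMI were deeper (medians of 71811.5 and 41120 UMIs against 8239 and 6703). In the uterus the 8 and 5 cells with Foxj1 held 35.4 and 18.8 CPM of Itga6, and those without held 31.7 and 27.4 CPM. The direction thus differed between the uterine libraries. The uterine cells with Foxj1 carried 536420 and 746344 of the 1419031 and 2023537 epithelial UMIs of their libraries. They were also deeper (medians of 71207.5 and 127699 UMIs against 5696.5 and 2763).

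The organ difference itself differed between epithelium and mesenchyme for 10 of 32 members tested as an interaction of organ and class in edgeR (31.2%, where 19.8% of all genes were called, 10.8% and 8.99% by direction), 5 in each direction. Itga6 differed between organs in epithelium and was level in mesenchyme at 9.22 and 10.4 CPM in the oviduct and 10.2 and 8.41 CPM in the uterus (interaction 2.21 ± 0.21 on the log2 scale, adjusted p = 4.74e-12). Itga1, lower in the oviduct mesenchyme, measured 2.73, 4.34, 6.34 and 1.98 CPM in epithelium (2.12 ± 0.45, adjusted p = 3.47e-04), a call that was lost without uterus replicate 2 (adjusted p = 0.0825). Lamb1 was higher in oviduct mesenchyme but not in oviduct epithelium, at 35.1 and 27.1 CPM in the oviduct and 52.9 and 37.1 CPM in the uterus (-1.35 ± 0.20, adjusted p = 7.04e-07). Itgb8 followed Lamb1 in sign (-1.38 ± 0.31), a call that was lost without uterus replicate 2 (adjusted p = 0.074). For Lamc1, higher in the oviduct in both classes, the interaction did not pass (-0.38 ± 0.18, adjusted p = 0.14). DESeq2 called 4 members, where it called 10.1% of all genes.

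Mesothelial cells were compared over clusters that both organs shared, cluster 12 holding 96.8% to 100% of them in each library. Of 25 members tested, 4 were higher and 4 lower in the oviduct (32.0%, where 8.25% of all genes were called, 4.78% higher and 3.47% lower). Itga6 measured 50.3 and 63.9 CPM in the oviduct and 20.6 and 21.8 CPM in the uterus (log2 fold change 1.43 ± 0.20 (SE), adjusted p = 8.83e-04). Itgb5 ran the other way with 13.2 and 11.3 CPM in the oviduct and 26.4 and 30.3 CPM in the uterus (log2 fold change -1.20 ± 0.20 (SE), adjusted p = 0.00338), opposite to its difference in mesenchyme. Lamb2 was lower in the oviduct as well, with 45.8 and 51.1 CPM in the oviduct and 73.5 and 71.2 CPM in the uterus (log2 fold change -0.57 ± 0.14 (SE), adjusted p = 0.0235), with an adjusted p of 0.0915 without uterus replicate 1 and 0.0679 without uterus replicate 2. Libraries of both organs were separate for these 3 chains. Under 20 CPM, Lama2 (2.02 ± 0.26), Itgb3 (1.77 ± 0.29) and Itga7 (1.13 ± 0.24) were higher and Itga8 (-3.23 ± 0.64) and Itga1 (-1.32 ± 0.31) lower in the oviduct. Itga1 lost its call without oviduct replicate 2 (adjusted p = 0.0679) or uterus replicate 2 (0.23), and Itga8 without oviduct replicate 1 (0.18), oviduct replicate 2 (0.186) or uterus replicate 2 (0.189). The mesenchyme markers summed to between 6519 and 7290 CPM in oviduct and between 9145 and 11055 CPM in uterine mesothelium, and free RNA could make up to 94.3% of the Itga8 UMIs of a library. With free RNA subtracted, Itga1 lost its call (adjusted p = 0.0839), and Itga8 no longer passed the count filter and gave no value. The part of mesenchymal cells in these differences was not tested. The count was 5 without uterus replicate 2 (6.47% of all genes called).

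Few chains passed between organs in pericytes, cells that share a basement membrane with the endothelium. Of 17 members tested, 3 were higher and 0 lower in the oviduct (17.6%, where 4.93% of all genes were called, 3.32% higher and 1.61% lower), with 1 chain (Itga8) lower at unadjusted p under 0.05. Itgb1 measured 663 and 708 CPM in the oviduct and 546 and 476 CPM in the uterus (log2 fold change 0.38 ± 0.11 (SE), adjusted p = 0.0422). Lamc1 measured 148 and 155 CPM in the oviduct and 104 and 98.4 CPM in the uterus (log2 fold change 0.54 ± 0.14 (SE), adjusted p = 0.0156). Both calls were lost when any 1 of the 4 libraries was left out, with adjusted p from 0.0841 to 0.428 for Itgb1 and from 0.0522 to 0.236 for Lamc1, although no oviduct library overlapped a uterine one. DESeq2 called 0 of the 17, where it called 1.51% of all genes, with 4 at unadjusted p under 0.05. Lama5 was the third, at 14.6 and 10.0 CPM in the oviduct and 3.39 and 2.13 CPM in the uterus (2.15 ± 0.52), with free RNA able to make up to 52.7% of its UMIs in a library, and its adjusted p was 0.427 without oviduct replicate 1 and 0.13 without uterus replicate 2. By edgeR the count was 0 without oviduct replicate 1 (0.448% of all genes called), with 4 at unadjusted p under 0.05. It was 0 without uterus replicate 2 (4.12% of all genes), with 3 at unadjusted p under 0.05, and 1 without oviduct replicate 2 (3.49%). Itga1 and Itga4, both high in this class, did not pass (adjusted p = 0.996 and 0.995).

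In blood endothelium 1 member was higher and 1 lower of 17 tested (11.8%, where 3.18% of all genes were called, 2.46% higher and 0.72% lower). Itga4 was lower in the oviduct, at 9.06 and 12.2 CPM in the oviduct and 43.6 and 27.0 CPM in the uterus (log2 fold change -1.71 ± 0.23 (SE), adjusted p = 2.14e-04), and kept its call in every alternative run. Lama3 was higher (0.92 ± 0.25, adjusted p = 0.04985), at 12.4 and 16.5 CPM in the oviduct and 7.1 and 8.07 CPM in the uterus, with an adjusted p of 0.27 without oviduct replicate 2 and 0.143 without uterus replicate 1. The organs' libraries were separate for both. Itga2, Itga6, Lama4 and Lamc1 had log2 fold changes between 0.07 ± 0.15 and 0.28 ± 0.15 and did not pass, and neither did Itga5 (0.51 ± 0.15, adjusted p = 0.0742). Among myeloid cells 0 of 9 members tested were called by edgeR and 0 by DESeq2 (0.242% of all genes by edgeR, 0.19% higher and 0.0518% lower). By DESeq2 2 had an unadjusted p under 0.05 and by edgeR 3: Itga6 at 137 and 147 CPM in the oviduct and 76.8 and 46.2 CPM in the uterus, Itgb5 at 178 and 114 CPM in the oviduct and 64.8 and 12.8 CPM in the uterus and Itgal at 65.3 and 32.1 CPM in the oviduct and 110.5 and 87.3 CPM in the uterus. The myeloid count was 1 without oviduct replicate 2 (1.17% of all genes called), 3 without uterus replicate 1 (2.98%) and 2 with a replicate block (2.21%).

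Partner genes of the same matrix were counted in 4 lists that hold no member. Of all genes tested, 43.9% were called between organs in mesenchyme, 31.4% in smooth muscle and 23.3% in epithelium. Cells of both organs lay mostly in different clusters in mesenchyme and smooth muscle, and partly so in epithelium, as given above. Partner genes are given over all cells of a class, and the part of cluster make-up in their differences was not tested. Of 19 basement membrane partners such as type IV collagens and nidogens, 14 were higher and 3 lower in oviduct mesenchyme (median log2 fold change 1.23), 13 higher and 1 lower of 18 in smooth muscle, and 6 higher and 4 lower of 14 in epithelium. Col15a1, which ties basement membranes to the underlying matrix, differed most in mesenchyme (3.09 ± 0.09, adjusted p = 8.45e-11), from 133 and 127 CPM to 14.4 and 14.7 CPM. It was among the 10 top genes of cluster 8, which held 554 and 454 oviduct mesenchymal cells and 0 uterine ones. Col4a6, a chain of type IV collagen, was also higher in oviduct mesenchyme (2.19 ± 0.09, adjusted p = 1.01e-09), while Frem1 (-0.56 ± 0.09, adjusted p = 2.50e-04) and Col4a2 (-0.30 ± 0.08, adjusted p = 0.00984) were lower. Agrn (0.77 ± 0.18, adjusted p = 0.0047) and Col4a5 (0.66 ± 0.23, adjusted p = 0.0431) were higher in oviduct epithelium. Ntn4, a laminin-binding netrin, was lower there, at 6.76 and 9.26 CPM against 51.4 and 51.4 CPM (-2.52 ± 0.23, adjusted p = 1.78e-07).

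Other laminin receptors and hemidesmosome genes had 8 higher and 1 lower of 11 tested in mesenchyme (43.9% of all genes called) and 3 higher and 1 lower of 10 in epithelium (23.3%). Dst, which encodes a plakin of hemidesmosomes, was higher in the oviduct in both (1.33 ± 0.13, adjusted p = 2.88e-06 and 1.77 ± 0.22, adjusted p = 9.15e-06). Sgcb (0.96 ± 0.09, adjusted p = 3.28e-06) rose and Sdc1 (-0.66 ± 0.08, adjusted p = 4.01e-05) fell in oviduct mesenchyme. In epithelium Bcam, a receptor of the Lama5 product, was higher (0.81 ± 0.19, adjusted p = 0.00413) and Sdc2 lower (-0.90 ± 0.20, adjusted p = 0.00231). Of the ligands that integrins bind beside laminins, 9 were higher and 3 lower of 16 in mesenchyme (43.9% of all genes), and 5 higher and 2 lower of 11 in epithelium (23.3%). Fn1, fibronectin, was lower in the oviduct in both (-1.93 ± 0.10, adjusted p = 6.34e-09 in mesenchyme and -1.09 ± 0.21, adjusted p = 7.14e-04 in epithelium). Npnt, the ligand of the Itga8 chain, was higher in oviduct mesenchyme (1.27 ± 0.09, adjusted p = 1.27e-07), where Itga8 was lower, and lower in oviduct epithelium (-0.90 ± 0.22, adjusted p = 0.00475). Postn was higher in oviduct mesenchyme (2.20 ± 0.09, adjusted p = 7.84e-10), Icam1 in oviduct epithelium (3.56 ± 0.34, adjusted p = 3.23e-07), and Thbs1 was lower in the former (-0.92 ± 0.20, adjusted p = 0.00231) and higher in the latter (3.45 ± 0.32, adjusted p = 2.47e-07). Postn was among the 10 top genes of cluster 4, with 409 and 269 oviduct and 40 and 25 uterine mesenchymal cells. All epithelial values of partner genes include clusters 23 (64 and 105 oviduct cells) and 28 (16 and 37), which held 0 uterine cells. The integrin adhesion complex inside the cell had 4 higher and 3 lower of 20 in mesenchyme (43.9% of all genes) and 3 higher and 3 lower of 19 in epithelium (23.3%). Tgfb1i1 (0.50 ± 0.10, adjusted p = 0.00101) and Tns2 (0.40 ± 0.09, adjusted p = 0.00292) rose and Tns3 (-0.34 ± 0.09, adjusted p = 0.00613) and Tln2 (-0.34 ± 0.10, adjusted p = 0.0195) fell in oviduct mesenchyme. In oviduct epithelium Vcl was higher (0.71 ± 0.21, adjusted p = 0.0184), and Tln2 (-1.47 ± 0.19, adjusted p = 9.75e-06) and Flna (-0.99 ± 0.18, adjusted p = 4.26e-04) were lower. Ccn1 and Ccn2, listed among the ligands, were not found in the tables under these symbols.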

How the data were processed

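The 4 libraries were deposited by the authors as matrices of counts, whole numbers of UMIs per gene and barcode. The called-cell matrices were made with Cell Ranger 6.0.1 and the matrices of all droplets with Cell Ranger 4, per the file headers. The build mm10 and Seurat 4.2.3 are named in the submitters' processing notes, while annotation, strand setting and use of intron reads are, for these matrices, not given in the sources used here. The raw matrices served to estimate free RNA from droplets of at most 100 UMIs.

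Cells needed at least 500 detected genes and a mitochondrial share of UMIs of at most 15%, and 951 doublets were removed by simulated doublet scores at 0.8% per 1000 barcodes. A class needed at least 3 detected markers (5 for muscle) and a marker sum per 10000 UMIs of 5 or 8, of 10 for mesenchyme and of 50 for muscle. Muscle markers had to stay under 35 in mesenchyme, mesenchyme markers at or under 25 in epithelium, endothelium and myeloid cells, and haemoglobin under 200 in all. These limits were set after the marker levels had been seen. Clusters (2000 variable genes without the members, 30 components, 15 neighbours, resolution 1, 29 clusters, scanpy 1.11.5, leidenalg 0.10.2) served as an alternative.

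Sums per library and class with at least 20 cells in every library were tested in R 4.3.3 with edgeR 4.0.16 (TMM, filterByExpr, quasi-likelihood test, Benjamini-Hochberg over all genes tested, threshold 0.05), with a library term between classes and none between organs. The SE given beside a log2 value was back-calculated, as its absolute size divided by the square root of the F statistic of that test. The organ fits were run on simulated counts with known changes, drawn with dispersions estimated from these same sums. The class and interaction fits were not simulated. DESeq2 1.42.0, other scaling, no count filter, stricter cells, kept doublets, classes from clusters, subtracted free RNA, cells of at least 5000 UMIs, a replicate block and leaving out each library were alternatives. Values limited to clusters with at least 10 cells in every library, values without 2 clusters of mixed markers and the class effect fitted per organ were added after seeing the data.

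Per-library values are given for called members with a mean of at least 20 CPM, up to 5 per direction by size of change in the epithelial and mesenchymal classes and up to 3 elsewhere, and the 3 largest differences of a class from mesenchyme. Partner genes are the 2 largest called changes per list and direction with at least 20 CPM. Other members were named after their values were seen. Members, lists and tests were chosen with earlier results of these data known. Counts of members include 1 member whose values are not reported here. Counting intervals cover counting error only.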

Additional observations from a re-analysis of the deposited data

Results flagged for a closer look

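The difference between oviduct and uterus was itself different in epithelium and mesenchyme for the chains below, by a test of the interaction of organ and class (edgeR's quasi-likelihood test, adjusted over all genes tested). A positive value means that the log2 fold change of oviduct over uterus was larger in epithelium. It was 2.21 for Itga6 (adjusted p = 4.74e-12), a laminin receptor chain, 2.12 for Itga1 (adjusted p = 3.47e-04), a collagen receptor chain, and 0.98 for Itga2b (adjusted p = 0.00372). It was -1.35 for Lamb1 (adjusted p = 7.04e-07) and -1.38 for Itgb8 (adjusted p = 6.58e-04). Smaller values were -0.61 for Lamb2 (adjusted p = 0.0220) and -0.61 for Lama5 (adjusted p = 0.0356), both laminin chains. The Lama5 call was lost under 10 alternatives, among them DESeq2 (adjusted p = 0.191), doublets kept (0.0612), free RNA subtracted (0.237) and leaving out oviduct replicate 2 (0.458), uterus replicate 1 (0.168) or uterus replicate 2 (0.0811), and its direction turned with classes from clusters (0.35). The Lamb2 call was lost under 5, namely DESeq2 (0.166), no count filter (0.0590) and leaving out oviduct replicate 2 (0.331), uterus replicate 1 (0.109) or uterus replicate 2 (0.108). Itga1 missed the threshold with DESeq2 (0.0865) and without uterus replicate 2 (0.0825), Itga2b with DESeq2 (0.0727) and Itgb8 without uterus replicate 2 (0.0740). For Itga2 and Lama4 the fitted values of 11.40 (adjusted p = 3.45e-07) and 2.63 (adjusted p = 0.00957) rest on 0 and 2 UMIs in the uterine epithelium, so that their size depends on the prior count of the fit and is no measure of the difference. The Lama4 call was lost with DESeq2 (adjusted p = 0.121), with classes from clusters (0.312) and without uterus replicate 2 (0.262).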

How the results depend on the processing

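Counts of called chains between organs stayed within 1.5 times of the main values (18 mesenchymal, 17 muscle, 8 mesothelial and 7 epithelial calls) under every alternative except these. Limited to clusters found in every library, epithelium had 0 and smooth muscle 6. Fewer cells were tested there, several log2 fold changes were smaller, and a smaller share of all genes was called, as given above. Pericytes went from 3 (4.93% of all genes called) to 0 with DESeq2 (1.51%). They went to 1 with doublets kept (4.54%) and to 1 with free RNA subtracted. Blood endothelium went from 2 (3.18% of all genes) to 1 with RLE size factors (3.2%) and 1 with DESeq2 (1.4%). It also had 1 with stricter cells (3.37%), 1 with classes from clusters (2.77%), 1 with free RNA subtracted and 1 with cells of at least 5000 UMIs. Myeloid cells went from 0 (0.242% of all genes) to 2 with no count filter (1.85%) and to 2 with a replicate block. Smooth muscle against mesenchyme went from 9 (6.68% of all genes) to 3 with classes from clusters (7.42%) and to 17 with the class effect fitted per organ. The interaction went from 10 (19.8% of all genes) to 4 with DESeq2 (10.1%). Leaving out 1 library gave 0 to 2 in pericytes, where 0.448% to 4.12% of all genes were called. It gave 1 to 3 in blood endothelium (2.7% to 3.8% of all genes) and 0 to 3 in myeloid cells (0.316% to 2.98%). It gave 5 to 9 in mesothelium (6.47% to 12%) and 4 to 6 in smooth muscle against mesenchyme (3.55% to 5.18%). For the interaction it gave 4 to 9 (12.9% to 16.3%). The share of all genes called thus moved between these runs as well. Direction reversed for Itga8 in smooth muscle (0.85) and the interaction of Lama5 (0.35) with classes from clusters, and for Lamc1 in epithelium (-0.12) and Itgb8 in smooth muscle (0.30) in clusters found in every library. The cause was not tested. Where a count of an alternative stands without a share of all genes called, it is no result about the members.

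Of 50 named values, 38 kept direction and call with DESeq2, 50 with RLE size factors, 46 with doublets kept, 46 with free RNA subtracted and 44 with classes from clusters, and 41 to 45 when 1 library was left out. In clusters found in every library 15 of 22 did, 6 were no longer called and 1 reversed. DESeq2 moved the median of all genes in myeloid cells against mesenchyme from -0.31 to -0.17. With stricter cells or at least 5000 UMIs a myeloid library had under 20 cells and gave no value. Few cells limit the precision in epithelium, with 48 and 54 uterine cells, and in myeloid cells, with 35 to 74, and pericyte sums held 1198108 to 1879541 UMIs.

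The replicate numbers are shared by both organs, but the labels do not say which libraries share a pool. The numbers were therefore not taken to pair the samples. Correlations of the deviations of same-numbered libraries ran from -0.121 in epithelium to 0.207 in mesenchyme. They rest on a single difference per organ and cannot decide whether these libraries were paired. With a replicate block there were 20 mesenchymal, 17 muscle, 8 mesothelial, 6 epithelial, 3 pericyte, 2 endothelial and 2 myeloid calls. In myeloid cells the share of all genes called rose with the block as well, as given above. Shares of the other blocked fits are not given here, so that these counts are no result about the members. Of 22 named values 20 kept their call in the block, and Lamb3 in epithelium (adjusted p = 0.0736) and Itgb1 in pericytes (adjusted p = 0.0537) did not.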
